A study of Homo sapiens with 6 samples.

Results

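The genes described here are the solute carriers, the membrane transporters whose human symbols have the form SLC, a family number, A and a member number. A gene was taken when its symbol had that form and it was listed at all 3 times of the series with a mean of at least 1 FPKM (fragment counts scaled to transcript length and to the mapped total of the library) over the 6 libraries. This gave 162 genes of the 11886 listed at all 3 times. Another 21 such symbols were listed at only 1 or 2 times, and no carrier listed at all times fell under the mean of 1 FPKM. The lowest means inside the limit were those of SLC26A11 at 1.68 FPKM and SLC27A3 at 1.85 FPKM, and no member was listed at 0 in any library.

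Solute carriers move small molecules across membranes without splitting ATP, either down the gradient of the substrate or coupled to the gradient of another ion or metabolite. Those of the plasma membrane feed a growing cell with amino acids, glucose, nucleosides, vitamins and metals, and export lactate, protons and excess zinc or iron. The SLC25 family sits mostly in the inner mitochondrial membrane and exchanges nucleotides, phosphate, amino acids and cofactors between matrix and cytosol. A cell about to copy its genome draws on several of these routes, since folate, amino acids and phosphate all enter nucleotide synthesis.

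The cells were U2OS, an established human osteosarcoma line. Cells transfected with siRNA against E2F7 (siE2F7) or with a non-targeting control siRNA (siNT) were held for 24 h in 4 mM hydroxyurea, which inhibits ribonucleotide reductase and halts cells as replication begins, then washed and released. RNA was taken at 0, 3 and 12 h, with 1 library for each arm and time and 6 in all, every one from cells that had been through the arrest. No source used here gives the siRNA sequences, so effects on E2F7 and on other targets of the siRNA cannot be told apart. E2F7, an atypical E2F that represses transcription, stood at 20.3, 29.4 and 16.6 FPKM in siNT and at 9.48, 10.6 and 5.52 FPKM in siE2F7 at 0, 3 and 12 h. Of 9 bone and mesenchyme markers 7 were listed, with sums of 1703, 1610 and 1693 FPKM in siNT and 1630, 1555 and 1571 FPKM in siE2F7. These sums were lower in siE2F7 at each time, and TNFRSF11B and ALPL fell by limma (log2 change -0.56 and -0.37, adjusted p = 0.029 and 0.043). Markers of blood and endothelium were nearly absent: of the 4 blood markers LAPTM5 was listed, at 2.47 FPKM or less, and of the 3 endothelial markers none. All 5 epithelial markers were listed, 1 of them (CDH1) at 2 times, with sums of 246.2, 269.1 and 302.6 FPKM in siNT and 204.2, 225.6 and 204.9 FPKM in siE2F7. These sums, mostly keratins, were lower in siE2F7 at each time, and 3 of the markers fell (KRT8, KRT18 and CLDN4; limma, adjusted p = 0.023, 0.044 and 0.043). The part of either marker list in the results below was not tested. FPKM carries no read counts, so the depth behind each value is unknown.

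Over the 3 times 7 carriers rose and 15 fell in siE2F7, and 140 did not pass the test. The test was limma with time as a block on log2(FPKM + 0.1), fitted and adjusted (Benjamini-Hochberg, threshold 0.05) over all 11886 genes, and every log2 change below is on that scale. Among all genes tested, 6.76% were called higher and 7.13% lower. The carriers stood at 4.32% and 9.26%, on both sides near those shares in this fit. Without the variance trend of the fit 4 carriers rose and 14 fell, where 400 and 452 of all genes did. There the carriers that fell stood further above the share of all genes. The median log2 change in the main fit was -0.08 for the carriers against -0.03 for all genes. The direction of the ratio was the same at the 3 times for 95 carriers (58.6%, against 51.4% of all genes), 37 of them higher and 58 lower. With 1 library for each arm and time, the error comes from the spread of the 3 paired ratios and of genes of like level, so a p-value speaks of the spread among these 6 libraries, which may be technical. Without the time block 0 carriers passed by limma, where 15 of all genes were called higher and 17 lower. In that fit 5 higher and 13 lower carriers had an unadjusted p under 0.05, a level at which all genes were not counted. The plot by substrate class shows where the 22 calls lie.

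**Figure D1:**
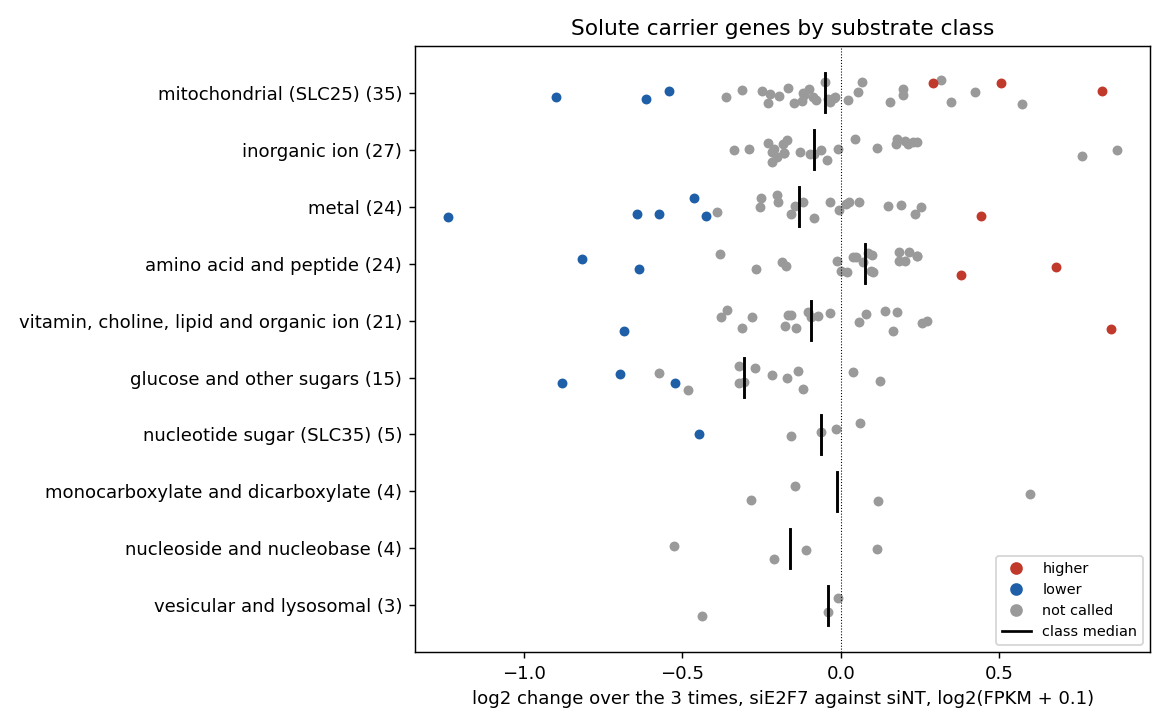
Each point is 1 of 162 solute carrier genes, placed by its log2 change over the 3 times (x axis, siE2F7 against siNT, log2(FPKM + 0.1)) within its substrate class (y axis, with the number of members). Red and blue points passed the limma test as higher (7) or lower (15), grey points did not, and the black bar is the class median, lowest at -0.31 in the sugar class.

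The calls were spread over 6 of the 10 substrate classes. The metal class held 1 carrier that rose and 5 that fell of 24, the SLC25 class 3 and 3 of 35, the amino acid and peptide class 2 and 2 of 24, and the sugar class 0 and 3 of 15. The class of vitamin, choline, lipid and organic ion carriers held 1 that rose and 1 that fell of 21, and the nucleotide sugar class 1 that fell of 5. None of the 27 carriers of inorganic ions passed, nor any of the 4 nucleoside, 4 carboxylate and 3 vesicular or lysosomal carriers. At an unadjusted p under 0.05 by limma these classes had, in that order, 3, 0, 1 and 0 higher members and 2, 1, 1 and 1 lower ones. The share of all genes under that level was not counted. Leaving out 1 time changed some counts by more than 1.5 times: without 0 h the amino acid class had 1 rise and the metal class 0, without 3 h the metal class had 3 falls and the SLC25 class 1 rise, and without 12 h the metal class had 0 rises.

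**Figure D2:**
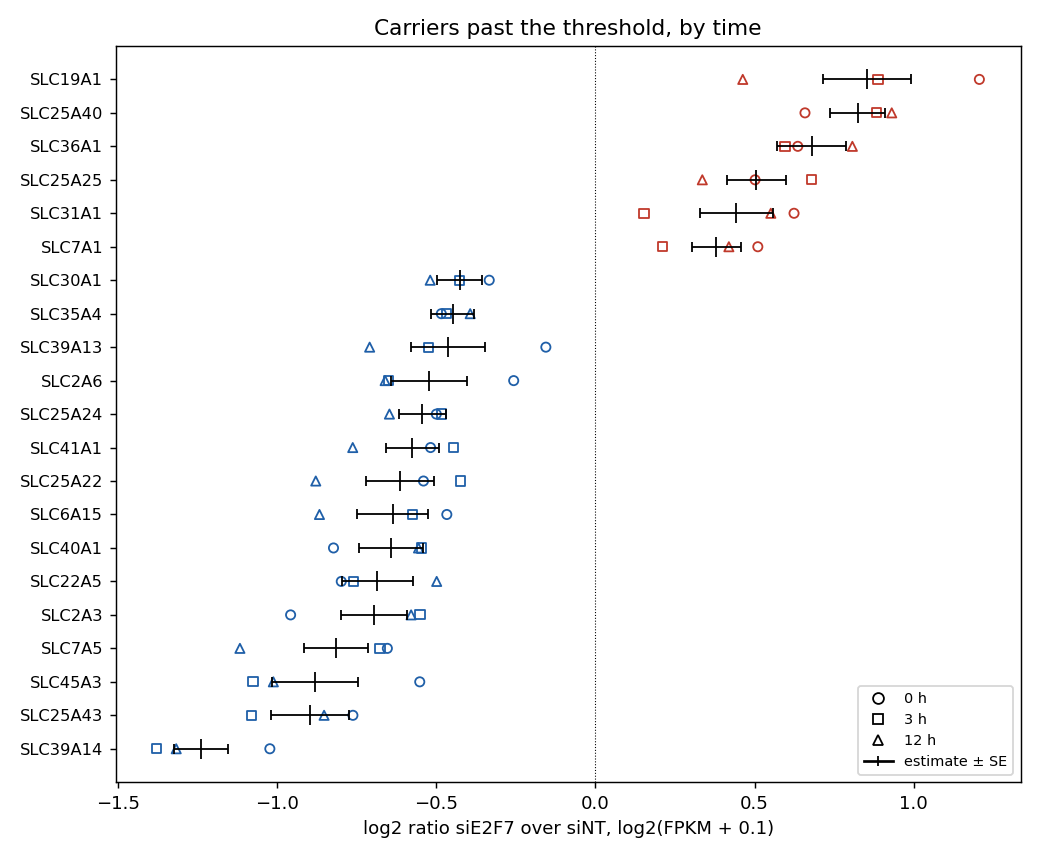
Of the 22 carriers past the threshold, 21 (y axis) with the log2 ratio of siE2F7 over siNT at 0, 3 and 12 h (circles, squares and triangles) and the limma estimate with its SE (black). All 3 ratios of each gene shown lie on 1 side of 0, from -1.38 for SLC39A14 at 3 h to 1.21 for SLC19A1 at 0 h.

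Amino acid carriers moved in both directions. SLC7A5 (LAT1, hg19, chromosome 16, 87863629 to 87903100), which brings large neutral amino acids such as leucine into the cell, stood at 130.7, 230.2 and 156.9 FPKM in siNT and at 83.1, 144.1 and 72.3 FPKM in siE2F7 at 0, 3 and 12 h. It was lower in siE2F7 at each time, although the 2 ranges over all times overlapped, since both arms were highest at 3 h. The log2 change was -0.81 ± 0.10 (SE; limma, adjusted p = 0.0036). SLC7A5 works as a pair with SLC3A2 (CD98 heavy chain), the glycoprotein that carries it to the surface. SLC3A2 stood at 137.5, 185.2 and 158.8 FPKM in siNT and at 113.7, 175.2 and 116.6 FPKM in siE2F7, again lower at each time, but its log2 change of -0.27 ± 0.08 did not pass (adjusted p = 0.074). It did pass after quantile normalization (adjusted p = 0.022) and without the libraries of 3 h (0.041).

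SLC6A15, a sodium-coupled carrier of branched-chain amino acids and proline, fell from 7.01, 8.49 and 7.31 in siNT to 5.04, 5.67 and 3.96 FPKM in siE2F7. The arms did not overlap, and the log2 change was -0.64 ± 0.11 (adjusted p = 0.012), a call that ended without the libraries of 3 h (adjusted p = 0.051). The members that rose were SLC36A1 and SLC7A1. SLC36A1 (PAT1, hg19, chromosome 5, 150827163 to 150871940), a proton-coupled carrier of small amino acids found on lysosomes, went from 3.90, 3.70 and 3.38 in siNT to 6.11, 5.65 and 5.99 FPKM in siE2F7, again without overlap. Its log2 change was 0.68 ± 0.11 (adjusted p = 0.0088). SLC7A1 (CAT1), the main importer of arginine and lysine in many cells, stood at 31.4, 44.5 and 27.6 FPKM in siNT and at 44.7, 51.5 and 37.0 FPKM in siE2F7. It was higher at each time, by 0.38 ± 0.08 over all (adjusted p = 0.020), but was not called without the libraries of 0 h (adjusted p = 0.080) or without the variance trend.

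The other 20 amino acid and peptide carriers had log2 changes from -0.38 to 0.24, and the class median was 0.08. SLC1A5 (ASCT2), a glutamine carrier and the most abundant of them, ran from 146.4 to 171.8 FPKM in siNT and from 153.6 to 204.2 FPKM in siE2F7, with a log2 change of 0.18 (adjusted p = 0.14, and 0.040 after quantile normalization). SLC38A2 (SNAT2), which takes up glutamine and alanine, had 0.20 (adjusted p = 0.072). SLC7A11, the cystine carrier that feeds glutathione synthesis, had 0.05 (adjusted p = 0.72). SLC6A8, the creatine carrier, stood at 29.9, 31.3 and 34.02 FPKM in siNT and at 29.2, 26.1 and 18.9 FPKM in siE2F7, so that the arms were near each other at 0 h and apart at 12 h (log2 change -0.38, adjusted p = 0.12).

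**Figure D3:**
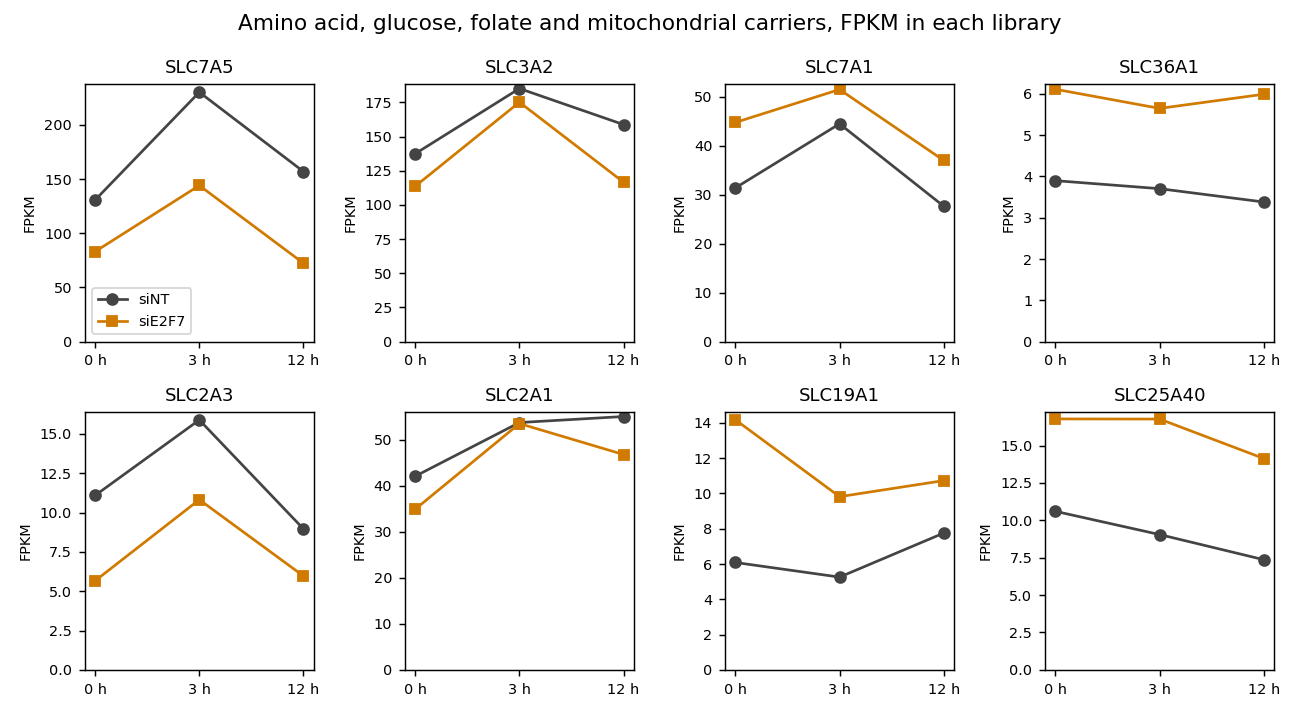
FPKM in each of the 6 libraries (y axis from 0) at 0, 3 and 12 h (x axis) for 8 carriers, siNT in grey circles and siE2F7 in orange squares. SLC7A5 and SLC2A3 lie lower and SLC7A1, SLC36A1, SLC19A1 and SLC25A40 higher in siE2F7 at each time, while SLC3A2 and SLC2A1 were not called.

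Of the 15 sugar carriers 3 fell and 0 rose by limma. A log2 change under 0 was found for 13 (86.7%, against 55.9% of all genes tested), and 10 were lower at each of the 3 times (66.7%, against 28.6%). None was higher at each time (22.8% of all genes), and the median was -0.31 against -0.03. These counts describe the class, which as a whole was not tested. SLC2A3 (GLUT3, hg19, chromosome 12, 8071824 to 8088892), a glucose importer of high affinity, went from 11.1, 15.9 and 8.96 in siNT to 5.66, 10.8 and 5.97 FPKM in siE2F7, a log2 change of -0.70 ± 0.10 (adjusted p = 0.0069). Both arms were highest at 3 h, and siE2F7 was lower at each time. SLC2A14, a close copy of SLC2A3 with which reads may have been shared, had -0.48 (adjusted p = 0.097), so the split between these genes is uncertain.

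SLC45A3 (prostein), best known from prostate tissue, fell from 5.84, 5.12 and 7.98 in siNT to 3.96, 2.38 and 3.91 FPKM in siE2F7, with no overlap of the arms (-0.88 ± 0.14, adjusted p = 0.0075). SLC2A6 (GLUT6), a glucose carrier of internal membranes, fell from 7.74, 6.14 and 5.66 FPKM to 6.47, 3.88 and 3.55 FPKM (-0.52 ± 0.12, adjusted p = 0.030), and was not called without the libraries of 3 or 12 h (adjusted p = 0.12 and 0.068) or without the variance trend. SLC2A1 (GLUT1), the general glucose importer and the most abundant sugar carrier here, stood at 42.1, 53.8 and 55.1 FPKM in siNT and at 34.9, 53.6 and 46.8 FPKM in siE2F7. The arms were alike at 3 h, and its log2 change was -0.17 ± 0.08 (adjusted p = 0.18). The other members not called ranged from -0.57, for SLC2A12, to 0.12, for SLC5A3, the myo-inositol carrier, whose locus it shares with MRPS6.

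Nucleoside carriers did not pass the test. SLC29A1 (ENT1), the chief equilibrative importer of nucleosides, stood at 70.0, 46.3 and 57.1 FPKM in siNT and at 71.5, 56.0 and 58.7 FPKM in siE2F7 at 0, 3 and 12 h, a log2 change of 0.12 (adjusted p = 0.34). SLC29A2 (ENT2) had -0.11 and SLC29A4 -0.21, with adjusted p of 0.49 and 0.25. The lysosomal SLC29A3 (ENT3) was the nearest to the threshold. It stood at 3.04, 3.37 and 3.34 FPKM in siNT and at 2.22, 2.21 and 2.26 FPKM in siE2F7, with the arms apart at each time (-0.52 ± 0.14, adjusted p = 0.051). It was called lower with a pseudocount of 1 (adjusted p = 0.046), without the variance trend (0.030) and without genes that share a locus (0.032).

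Metal carriers gave the largest fall of any member. SLC39A14 (ZIP14, hg19, chromosome 8, 22224762 to 22291640), which imports zinc, non-transferrin iron and manganese, stood at 40.8, 53.5 and 32.9 FPKM in siNT and at 20.03, 20.5 and 13.2 FPKM in siE2F7 at 0, 3 and 12 h. Every siNT library was above every siE2F7 library. The log2 change was -1.24 ± 0.09 (adjusted p = 0.001), and it was called in all 3 fits without the libraries of 1 time. SLC39A13 (ZIP13), a zinc carrier of the secretory pathway, went from 8.68, 10.2 and 17.7 FPKM to 7.78, 7.09 and 10.8 FPKM, a small gap at 0 h and a wide one at 12 h (-0.46 ± 0.11, adjusted p = 0.038). Its call ended without the libraries of 3 or 12 h (adjusted p = 0.14 and 0.12) or without the variance trend.

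The metal carriers that fell also included 2 exporters. SLC40A1 (ferroportin, hg19, chromosome 2, 190425316 to 190445537), the iron exporter of animal cells, went from 11.2, 7.24 and 7.08 in siNT to 6.31, 4.93 and 4.79 FPKM in siE2F7 (-0.64 ± 0.10, adjusted p = 0.0080). SLC30A1 (ZnT1), which pumps zinc out across the plasma membrane, stood at 20.7, 54.6 and 29.0 FPKM in siNT and at 16.4, 40.6 and 20.2 FPKM in siE2F7. It was highest at 3 h in both arms and lower in siE2F7 at each time (-0.43 ± 0.07, adjusted p = 0.0094), though not called without the libraries of 3 h (adjusted p = 0.057). It was the 1 called of the 6 SLC30 zinc carriers, whose median was -0.08, with 2 above 0. SLC41A1, a magnesium carrier, went from 22.7, 29.4 and 20.4 FPKM to 15.8, 21.6 and 12.0 FPKM (-0.57 ± 0.08, adjusted p = 0.0061). The other magnesium carriers SLC41A2 and SLC41A3 had -0.26 and -0.01 (adjusted p = 0.23 and 0.97).

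SLC31A1 (CTR1), the copper importer, was the metal carrier that rose. It stood at 5.98, 7.45 and 5.27 FPKM in siNT and at 9.27, 8.29 and 7.78 FPKM in siE2F7, the arms being closest at 3 h (0.44 ± 0.11, adjusted p = 0.044). The call ended without the libraries of 0 or 12 h (adjusted p = 0.17 and 0.10), without the variance trend and in a fit that also held genes not listed at every time. Within the zinc importers of the SLC39 family 5 of 10 members had a log2 change above 0 and 5 below. SLC39A1 (ZIP1), the most abundant metal carrier, ran from 57.4 to 67.0 FPKM in siNT and from 59.8 to 69.8 FPKM in siE2F7 (0.03, adjusted p = 0.82). SLC11A2 (DMT1), the importer of ferrous iron, had -0.16 (adjusted p = 0.24).

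Genes of metal storage and uptake outside the SLC names were set beside these. The metallothioneins MT2A, MT1X and MT1E, small proteins that bind zinc and copper, rose by 0.39 ± 0.09, 0.36 ± 0.09 and 0.46 ± 0.08 (adjusted p = 0.025, 0.035 and 0.013). MT2A stood at 363.2, 403.3 and 650.1 FPKM in siNT and at 459.8, 600.9 and 782.2 FPKM in siE2F7, higher at each time. Metallothionein genes are near-copies of each other, so the share of each is uncertain, and the calls of MT2A and MT1X each ended in 2 of the 3 fits that lacked a time (adjusted p up to 0.11 and 0.13). The transferrin receptor TFRC, the ferritin chains FTH1 and FTL and the zinc sensor MTF1 did not pass, with log2 changes of 0.11, 0.01, -0.12 and 0.15, though FTL was called lower without the libraries of 3 h (adjusted p = 0.047).

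**Figure D4:**
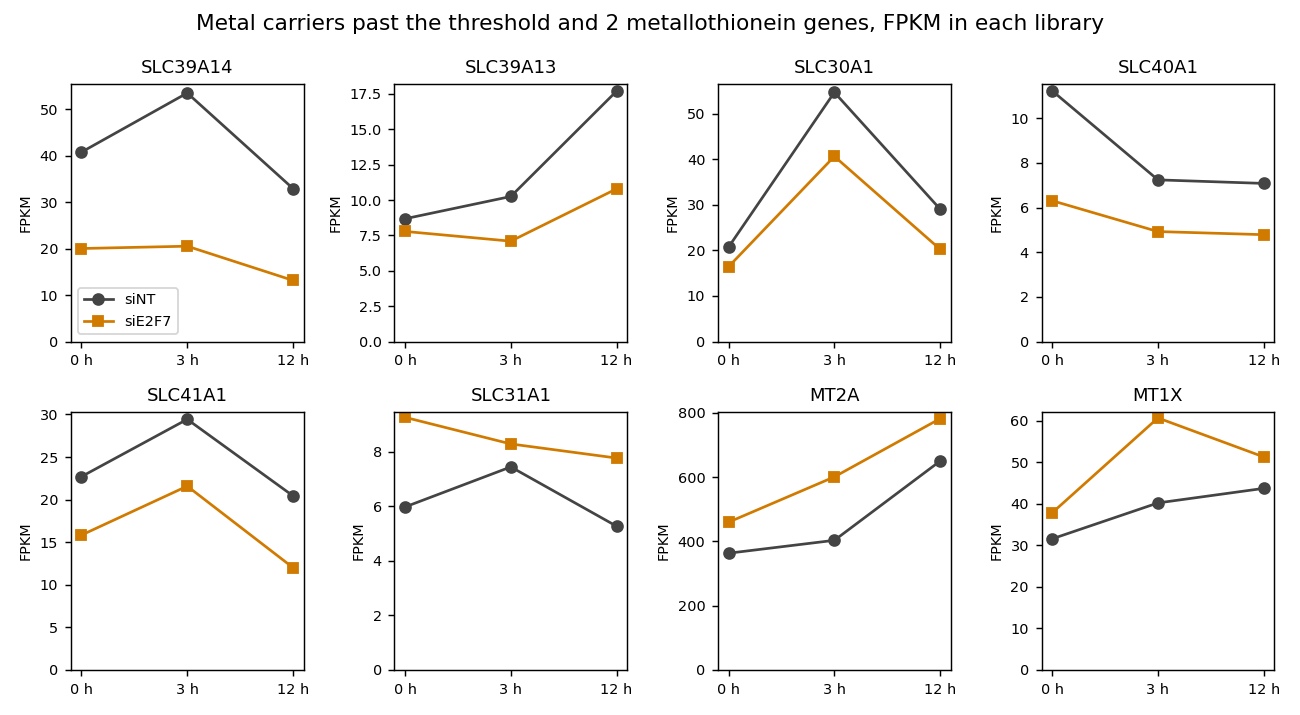
FPKM in each of the 6 libraries (y axis from 0) at 0, 3 and 12 h (x axis) for the 6 metal carriers past the threshold and for MT2A and MT1X, siNT in grey circles and siE2F7 in orange squares. SLC39A14 lies between 13.2 and 20.5 FPKM in siE2F7 and between 32.9 and 53.5 FPKM in siNT, while SLC31A1 and both metallothioneins lie higher in siE2F7.

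Of the 35 mitochondrial SLC25 carriers 3 rose and 3 fell, and the abundant ones did not pass. SLC25A5, the main ADP/ATP exchanger here, ran from 303.4 to 324.1 FPKM in siNT and from 303.4 to 349.6 FPKM in siE2F7 (0.07, adjusted p = 0.59). SLC25A3, the phosphate carrier, had -0.04 (adjusted p = 0.77). SLC25A39, linked to mitochondrial glutathione import, stood at 131.2, 110.2 and 126.6 FPKM in siNT and at 125.8, 116.2 and 120.4 FPKM in siE2F7 (-0.02, adjusted p = 0.87). Summed over the class, FPKM ran from 1059 to 1134 per library.

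SLC25A40, the close relative of SLC25A39, rose. It went from 10.6, 9.05 and 7.37 in siNT to 16.8, 16.8 and 14.1 FPKM in siE2F7, with no overlap of the arms (0.82 ± 0.09, adjusted p = 0.0023). The tables give SLC25A40 and DBF4, a kinase activator of origin firing, the same locus (hg19, chromosome 7, 87463814 to 87538856), so reads may have been shared between them. DBF4 itself had a log2 change of 0.17 ± 0.08 (adjusted p = 0.21).

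The calcium-regulated ATP-Mg/phosphate carriers moved apart. SLC25A25 rose from 8.33, 9.90 and 8.07 in siNT to 11.8, 15.9 and 10.2 FPKM in siE2F7 (0.51 ± 0.09, adjusted p = 0.014), a call lost without the libraries of 3 h (adjusted p = 0.081). SLC25A24 fell from 19.6, 22.02 and 18.5 FPKM to 13.8, 15.7 and 11.8 FPKM (-0.54 ± 0.07, adjusted p = 0.0048). SLC25A23, the third of that kind, had -0.10 (adjusted p = 0.45). The mitochondrial glutamate carrier SLC25A22 fell from 10.99, 11.3 and 12.2 FPKM to 7.53, 8.44 and 6.62 FPKM (-0.61 ± 0.11, adjusted p = 0.011). SLC25A43, whose substrate is not assigned here, fell from 6.03, 5.61 and 4.97 FPKM to 3.52, 2.60 and 2.71 FPKM (-0.90 ± 0.12, adjusted p = 0.0048). In each of these fallers every siNT library was above every siE2F7 library.

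Among carriers of vitamins and organic ions, SLC19A1 (the reduced folate carrier, hg19, chromosome 21, 46934629 to 46962385, which imports folates for nucleotide synthesis) had the largest rise among the 7 that passed. It stood at 6.09, 5.26 and 7.76 FPKM in siNT and at 14.2, 9.82 and 10.7 FPKM in siE2F7 at 0, 3 and 12 h. The arms did not overlap, and the log2 ratio went from 1.21 at 0 h through 0.89 at 3 h to 0.46 at 12 h. The log2 change over all was 0.85 ± 0.14 (adjusted p = 0.0090). The other folate carriers measured did not pass. SLC46A1, which takes up folate in acid surroundings, had -0.28 (adjusted p = 0.17), and SLC25A32, a mitochondrial folate or flavin carrier that shares a locus with DCAF13, had -0.17 (adjusted p = 0.17). SLC19A2, a thiamine carrier of the same family as SLC19A1, had -0.10 (adjusted p = 0.56).

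SLC22A5 (OCTN2), the carnitine importer, fell from 7.37, 5.20 and 6.78 in siNT to 4.20, 3.03 and 4.77 FPKM in siE2F7 (-0.68 ± 0.11, adjusted p = 0.0092). The tables give it 1 locus with SLC22A4, LOC553103 and MIR3936, and SLC22A4 had -0.38 ± 0.19 (adjusted p = 0.22). SLC5A6, the multivitamin carrier of biotin and pantothenate and the most abundant of this class, which shares a locus with C2orf28, had -0.17 (adjusted p = 0.13). The choline carriers SLC44A1, SLC44A2 and SLC44A3 had 0.26, 0.14 and 0.06, none of which passed.

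In the remaining classes 1 gene was called. SLC35A4, of the nucleotide sugar family, fell from 33.9, 27.7 and 28.8 in siNT to 24.2, 20.04 and 21.9 FPKM in siE2F7, with no overlap and nearly equal ratios at the 3 times (-0.45 ± 0.07, adjusted p = 0.0065). SLC16A1 (MCT1), a lactate and pyruvate carrier, stood at 59.4, 71.4 and 51.6 FPKM in siNT and at 67.0, 77.6 and 53.9 FPKM in siE2F7 (0.12, adjusted p = 0.26). Its relative SLC16A7 (MCT2), a low gene at 1.55 to 2.68 FPKM in siNT and 1.93 to 4.79 FPKM in siE2F7, had 0.60 ± 0.17 (adjusted p = 0.056), and was called higher after quantile normalization (adjusted p = 0.037), after centring each library on its median (0.049), without genes that share a locus (0.032) and without the libraries of 12 h (0.027). The chaperones of these carriers, BSG and EMB, had -0.03 and -0.02 (adjusted p = 0.81 and 0.87).

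Carriers of inorganic ions had log2 changes from -0.34 to 0.87. SLC20A1 (PiT1), the phosphate importer and the most abundant of them, stood at 67.1, 127.7 and 105.9 FPKM in siNT and at 95.5, 153.9 and 88.8 FPKM in siE2F7. It was higher in siE2F7 at 0 and 3 h and lower at 12 h (0.17 ± 0.13, adjusted p = 0.42), and was called higher without the libraries of 12 h (0.39, adjusted p = 0.042). SLC4A8, a bicarbonate carrier, stood at 1.18, 1.09 and 1.70 FPKM in siNT and at 1.599, 1.94 and 4.72 FPKM in siE2F7, with the widest gap at 12 h (0.87 ± 0.24, adjusted p = 0.053). It was called higher after quantile normalization (adjusted p = 0.031), without the libraries of 0 h (0.041) and without genes that share a locus (0.026). No gene is listed at a time when both of its libraries lie under 1.26 FPKM, and SLC4A8 was under that level in siNT at 0 and 3 h. It was listed at those times through siE2F7, so its direction there was set by the listing in each of these fits. SLC9A5, a sodium/proton exchanger, had 0.76 ± 0.26 (adjusted p = 0.097). At 12 h its siNT library was at 0.83 FPKM, so SLC9A5 too was listed at that time through siE2F7. SLC4A2, the common anion exchanger, had -0.22 (adjusted p = 0.10).

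At single times, where 1 library stands against 1 and no test is possible, few carriers differed by 2-fold or more. At 0 h 1 was higher (SLC19A1) and 2 lower (SLC39A14 and SLC2A12), where all genes had 0.732% higher and 0.875% lower. At 3 h 0 were higher and 3 lower (SLC39A14, SLC25A43 and SLC45A3), against 0.976% and 0.833% of all genes. At 12 h 3 were higher (SLC4A8, SLC9A5 and SLC25A14) and 3 lower (SLC39A14, SLC7A5 and SLC45A3), against 1.45% and 1.72%. SLC39A14 was thus the carrier past 2-fold at all 3 times. SLC9A5 stood at 0.83 FPKM in siNT and 2.46 FPKM in siE2F7 at 12 h. With siNT under 1.26 FPKM, it was listed at that time through the siE2F7 library, so its direction there was set by the listing. SLC25A14, a carrier of the uncoupling protein branch, stood at 5.83, 5.25 and 2.60 FPKM in siNT and at 5.36, 6.24 and 5.87 FPKM in siE2F7, so that its gap at 12 h came with a low siNT library (0.42 ± 0.22 over all, adjusted p = 0.24).

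Across time within an arm, levels are given as values, since each arm had 1 library a time and nothing shows that the 3 tables were scaled together. Between 0 and 12 h the median carrier had a log2 difference of -0.16 in siNT and -0.19 in siE2F7, where all genes had -0.03 and -0.05. By the mean of both arms, the lowest differences were those of SLC25A29, a mitochondrial carrier of basic amino acids (-1.47 in siNT and -1.48 in siE2F7), SLC30A3, a zinc carrier (-1.15 and -1.39), SLC46A1 (-1.17 and -1.23) and SLC1A4, a carrier of alanine and serine (-1.14 and -1.10). SLC1A4 went from 29.8 through 25.3 to 13.5 FPKM in siNT and from 36.9 through 26.4 to 17.2 FPKM in siE2F7. The highest by that mean were those of SLC41A3 (1.02 and 1.18), SLC4A8 (0.49 and 1.505), SLC25A37, the mitochondrial iron importer mitoferrin (1.08 and 0.54), and SLC39A13 (1.02 and 0.47). Single arms gave other orders: SLC9A5 had -1.39 in siNT and -0.10 in siE2F7, and SLC43A2, an amino acid carrier, had 0.38 and 1.08. SLC30A1 peaked at 3 h in both arms, as given above.

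**Figure D5:**
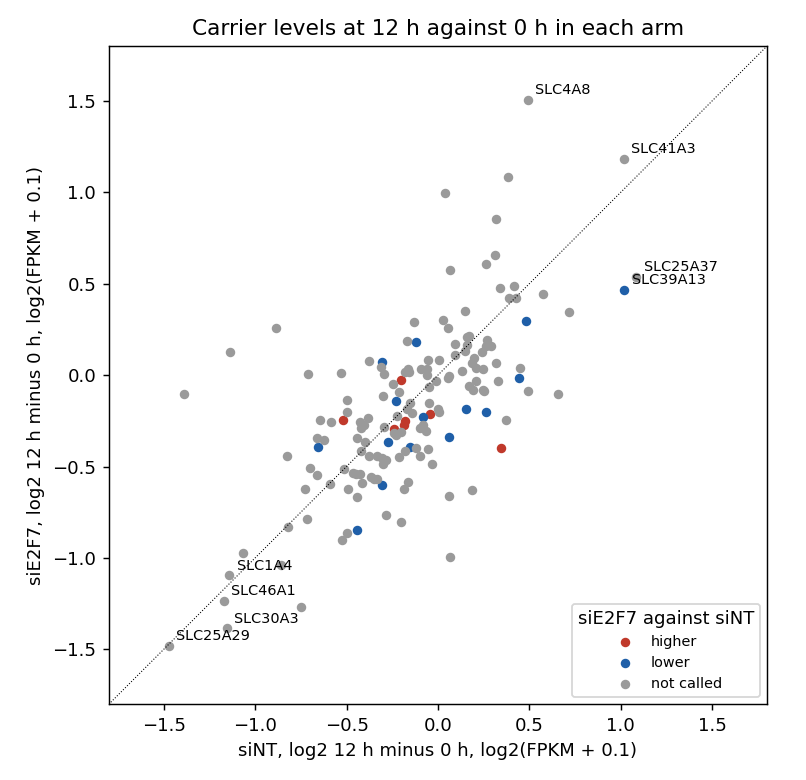
Log2 difference between 12 h and 0 h of the 162 carriers in siNT (x axis) and siE2F7 (y axis), log2(FPKM + 0.1), with the diagonal dotted and the colours giving the call between arms. SLC25A29 at -1.47 and -1.48 and SLC41A3 at 1.02 and 1.18 lie near the diagonal, and SLC4A8 at 0.49 and 1.505 lies above it.

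Promoters of the members were searched for E2F sites because E2F7 binds such sites. The motif was any of TTTCCCGC, TTTGGCGC, TTTGCCGC and TTTCGCGC on either strand, in RefSeq windows (GRCh38.p14) from 250 bases before to 50 after each annotated start. Of the 162 members 134 had an entry, and 15 of these (11.2%) held the motif in at least 1 window. Among genes tested with an entry the share was 6.88%, and among all genes with a promoter entry it was 3.99%. Counted by window, it was 7.21% in the members, 5.01% in the genes tested and 3.31% in all 35116 windows of the table. Counted by gene again, the share was 19.0% among genes called higher, against 3.98% of those called lower and 6.11% of those not called. In the carriers the motif was found in 2 of 6 called higher, 0 of 12 called lower and 13 of 116 not called. No pair of matches overlapped in the members. Genes with several starts have more windows, and a match describes letters, not binding.

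The carriers called higher that held the motif were SLC19A1 and SLC31A1, and the most abundant ones not called that held it were SLC3A2 and SLC39A9. Their windows are shown to let the places of the motif be compared, from 200 bases before the start to 10 after, 5′ to 3′ on the strand of the gene, with the motif in capitals. The SLC19A1 window, 1 of 4 starts, is chr21:45541837-45542046 on the minus strand, the SLC31A1 window chr9:113221344-113221553 on the plus strand, the SLC3A2 window, 1 of 3 starts, chr11:62855909-62856118 on the plus strand, and the SLC39A9 window, 1 of 2 starts, chr14:69398184-69398393 on the plus strand.
SLC19A1: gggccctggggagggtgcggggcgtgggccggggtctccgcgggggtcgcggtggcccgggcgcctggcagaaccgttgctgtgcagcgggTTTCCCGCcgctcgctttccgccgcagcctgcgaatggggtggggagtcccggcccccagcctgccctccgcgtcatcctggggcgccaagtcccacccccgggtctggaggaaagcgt
SLC31A1: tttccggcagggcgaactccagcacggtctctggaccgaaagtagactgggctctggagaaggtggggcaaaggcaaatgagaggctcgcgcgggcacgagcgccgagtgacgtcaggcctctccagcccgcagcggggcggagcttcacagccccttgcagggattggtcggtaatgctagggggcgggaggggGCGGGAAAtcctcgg
SLC3A2: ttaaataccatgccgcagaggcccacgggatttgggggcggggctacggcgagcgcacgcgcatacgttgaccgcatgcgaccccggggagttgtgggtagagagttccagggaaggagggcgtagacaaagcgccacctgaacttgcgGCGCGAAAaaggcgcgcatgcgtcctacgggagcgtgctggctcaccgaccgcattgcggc
SLC39A9: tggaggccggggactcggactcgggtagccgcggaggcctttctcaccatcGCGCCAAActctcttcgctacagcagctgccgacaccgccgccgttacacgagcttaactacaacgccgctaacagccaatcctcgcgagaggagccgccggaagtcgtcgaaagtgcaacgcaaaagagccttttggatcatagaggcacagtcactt
In SLC19A1 the motif began 109 bases before the start and read TTTCCCGC along the gene. In SLC31A1 it began 5 bases before the start and lay on the opposite strand. In SLC3A2 and SLC39A9 it began 51 and 149 bases before the start, also on the opposite strand. The log2 changes of these 4 genes were 0.85, 0.44, -0.27 and 0.23, of which the first 2 passed.

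Other transport genes were compared in the same fit. Of 21 ATP-binding cassette genes 1 rose and 1 fell, ABCB10, a mitochondrial exporter, at 0.43 ± 0.09 (adjusted p = 0.025), and ABCE1 at -0.81 ± 0.07 (adjusted p = 0.001). ABCE1 is a ribosome recycling factor and not a membrane transporter. It stood at 53.9, 53.6 and 54.6 FPKM in siNT and at 32.0, 31.2 and 29.1 FPKM in siE2F7. Of 10 MFSD genes, named for the major facilitator fold that many solute carriers share, 2 rose (MFSD6 and MFSD11) and 3 fell (MFSD1, MFSD10 and MFSD12), with a median of -0.28. The calls of ABCB10 and of these 5 ended in at least 2 of the 3 fits that lacked a time. At 12 h MFSD6 stood at 1.04 FPKM in siNT and 1.78 FPKM in siE2F7. With siNT under 1.26 FPKM, MFSD6 was listed at that time through siE2F7, so its direction there was set by the listing. None of 5 SLCO organic anion carriers and none of 5 porin and mitochondrial pyruvate carrier genes passed by limma. Of 14 partners and regulators the 3 metallothioneins rose and 0 fell. ATF4, which induces many amino acid carriers under stress, had 0.07 (adjusted p = 0.55), HIF1A 0.15 (adjusted p = 0.17) and NFE2L2 0.01 (adjusted p = 0.91).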

How the data were processed

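RNA was measured in 6 libraries, 1 for each arm and time. The FPKM values per gene are those deposited by the authors, per the file headers, which name an FPKM column, a locus and a sample. The submitters' processing notes name CASAVA 1.8 and hg19 (GRCh37), and no source used here gives the aligner, annotation or filters. The tables of 0, 3 and 12 h list 12799, 12475 and 12299 genes, and no gene is listed whose 2 libraries at that time both lie under 1.26 FPKM. Depth is unknown, and repeated ratios of low values gave no common step from which to recover reads.

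Tables were joined by symbol. On log2(FPKM + 0.1) the arm effect was fitted by limma 3.58.1 (R 4.3.3), using time as the block plus a variance trend, over 11886 genes (2 residual and 5.4 prior degrees of freedom). The code was also run on data simulated with independent noise from the variances of this fit. Such a run cannot show whether p-values hold with 1 library for each arm and time. Values on log2(FPKM + 0.1) understate the change of low genes. Genes named are those past the threshold, the 2 most abundant of each class, the extremes over time, and some others chosen after their values were seen. Members, classes and lists were chosen with earlier results of these data known, and SLC5A10 was moved to the sugar class after the files were read. Start positions count from 1. Sequences are RefSeq's, build GRCh38.p14. In all, 12 alternatives were tried. Labels do not say that times came from separate cultures. Some members are counted but not reported by name here.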

Additional observations from a re-analysis of the deposited data

Results flagged for a closer look

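In 4 carriers the ratio of siE2F7 over siNT pointed one way at 1 time and the other way at another, by 1.25-fold or more each way. The difference was not tested, since each time had 1 library an arm. How many of all genes turned in this way was not counted, so the 4 are listed as values only. The log2 ratios of SLC26A11 were -0.76 at 0 h, -0.62 at 3 h and 0.38 at 12 h. At 3 h SLC26A11 stood at 1.70 FPKM in siNT and 1.07 FPKM in siE2F7. With siE2F7 under 1.26 FPKM, it was listed at that time through siNT, and that direction was set by the listing. SLC6A16 had -0.49 at 3 h and 0.75 at 12 h. SLC8A2 had 0.38 at 0 h, -0.57 at 3 h and -0.34 at 12 h, and SLC9A7 had 0.35 at 0 h and -0.71 at 12 h.

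Of the 21 carriers listed at only some times, several differed by at least 1.25-fold in 1 direction wherever they were listed. SLC38A3, a glutamine carrier, had log2 ratios of 1.01 at 0 h and 0.60 at 3 h, from levels of 0.94 and 1.05 FPKM in siNT, and SLC7A3, a carrier of basic amino acids, had 0.50 at 0 h, from 0.993 FPKM. Both were under 1.26 FPKM in siNT, so they were listed through the siE2F7 library and their direction was set by the listing. On the lower side SLC7A10 had -2.14 at 0 h (1.597 FPKM in siNT and 0.284 FPKM in siE2F7), SLC16A12 had -0.60 at 0 h, and SLC6A6 had -0.40 at 0 h and -0.41 at 12 h. SLC7A10 was in turn listed through its siNT library.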

How the results depend on the processing

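The 22 calls kept their direction in each of the 12 alternatives that could fit them. Both pseudocounts (0.01 and 1), the minimum of 1 FPKM, quantile normalization and centring each library on its median kept all 22. With no time block 0 members were called higher and 0 lower by limma, in every class as well, where 15 and 17 of all genes were called. In that fit 5 and 13 members had an unadjusted p under 0.05. Quantile normalization called 11 higher and 16 lower, and a fit with no variance trend 4 and 14, where 7 and 15 were reported. Over all 11886 genes these fits called 965 and 883, 400 and 452, and in the main fit 803 and 847. Calls higher in the metal class were 2 after quantile normalization or centring, and 0 without the variance trend or with genes listed at only some times let in. Calls higher in the amino acid class were 1 without the variance trend. Without genes that share a locus 1 SLC25 carrier was called higher, and 0 carriers of vitamins and organic ions lower, SLC25A40 and SLC22A5 being among those left out. Leaving out the libraries of 1 time gave 5 to 7 members higher and 12 to 15 lower, where all genes had 332 to 557 and 431 to 560. In the metal class these fits gave 0 to 1 higher and 3 to 5 lower, in the amino acid class 1 to 2 higher, and in the SLC25 class 1 to 3 higher. With a pseudocount of 1, 0 carriers were 2-fold lower at 0 h, 1 was at 3 h and 1 was 2-fold higher at 12 h. The fit reported pairs the arms by time, and the labels give no replicate numbers for any other pairing. The causes of these shifts were not tested.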

Other observations

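SLC43A3, a nucleobase carrier, and SLC6A6, the taurine carrier, were well above the lowest level the tables list but had no entry at 3 h, so they were not among the 162 genes. SLC43A3 stood at 65.0 FPKM in siNT and 83.4 FPKM in siE2F7 at 0 h, and at 65.9 and 71.1 FPKM at 12 h. SLC6A6 stood at 19.0 and 14.4 FPKM at 0 h and at 22.7 and 17.04 FPKM at 12 h. SLC6A6 was thus lower in siE2F7 at both times and SLC43A3 higher, with no test of either here.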
